A study of Homo sapiens with 8 samples.

Results

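ATF4 and its target genes for amino acid supply were examined as a set of 35 genes, chosen by symbol: ATF4 and transcription factors that work with it, its stress outputs, enzymes that make serine, glycine, proline, asparagine and cysteine, amino acid transporters and a tRNA exporter. All 35 were found among the 27140 genes of the count table, and all 35 were among the 15289 genes with enough counts to be tested. RNA was sequenced in 8 libraries of LNCaP, a human prostate cancer line, from 4 stable lines with 2 libraries each. Every line was made with lentivirus, was selected with puromycin at 1 µg/ml and grew in RPMI-1640 with 10% serum. The first line carried a control hairpin with a vector (the control), and the second a hairpin against METTL3 with a vector (the knockdown). The other two carried the METTL3 hairpin together with a METTL3 that the hairpin does not reach, either wild-type (the wild-type rescue) or catalytically dead (the mutant rescue). METTL3 is the enzyme subunit that writes N6-methyladenosine on messenger RNA, and the labels set a line with the active enzyme beside a line with the inactive one. Protein and methylation were not analysed here, so activity, METTL3 dose and differences between separately made lines cannot be told apart. The labels do not say whether a line came from a single clone, whether the 2 libraries of a line came from separate cultures, or what the vector holds. The p-values therefore measure only the spread between these libraries, which may be technical.

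ATF4 is a transcription factor whose messenger RNA is translated more when kinases that sense missing amino acids, unfolded protein, heme shortage or double-stranded RNA phosphorylate the initiation factor eIF2. It pairs with C/EBP-type factors on composite DNA elements and raises genes for amino acid synthesis, amino acid import and tRNA charging. Under lasting stress it also raises ATF3, DDIT3 (CHOP) and TRIB3, which shift the response or restrain it, and growth signalling through mTORC1 feeds into the same program.

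The composite element was looked for in the RefSeq promoter windows (GRCh38.p14) as the letters TGATGNAA on both strands. Each window had 300 bases, most of them before the start site. Windows were found for 28 of the 35 genes, and 8 of the 28 (28.6%) had a match in at least 1 window. The same held for 2.80% of the 11109 tested genes with windows and 4.46% of all 27305 genes with windows. Because the genes were chosen as ATF4 and its targets, a higher share may come with that choice. It is no separate evidence of control by ATF4, which was not tested. Genes of the set had more windows each (1.71) than tested genes (1.45), and counted by window the shares were 20.8% and 2.07%, where 3 of the 10 windows with a match are overlapping MTHFD1L windows that hold the same element. The 8 stretches are shown because these are the letters that C/EBP and ATF dimers are known to bind. The match is in capitals with 20 bases on each side, on the strand of the gene.
ATF3: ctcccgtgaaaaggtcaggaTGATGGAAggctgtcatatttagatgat
CEBPG: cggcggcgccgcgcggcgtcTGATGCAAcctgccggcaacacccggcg
JDP2: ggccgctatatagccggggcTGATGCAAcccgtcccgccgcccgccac
ASNS: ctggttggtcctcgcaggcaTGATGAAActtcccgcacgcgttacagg
MTHFD1L: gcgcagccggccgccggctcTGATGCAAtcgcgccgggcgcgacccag
SLC7A1: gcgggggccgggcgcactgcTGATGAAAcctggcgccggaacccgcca
SLC1A4: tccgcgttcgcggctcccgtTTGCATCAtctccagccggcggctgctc
SLC1A5: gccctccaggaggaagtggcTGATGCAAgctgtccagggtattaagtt

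These stretches lie at chr1:212565196-212565243 (ATF3, plus strand), chr19:33374051-33374098 (CEBPG, plus), chr14:75427986-75428033 (JDP2, plus) and chr7:97872449-97872496 (ASNS, minus). The others are at chr6:150866337-150866384 (MTHFD1L, plus), chr13:29595654-29595701 (SLC7A1, minus), chr2:64989372-64989419 (SLC1A4, plus) and chr19:46784884-46784931 (SLC1A5, minus). In SLC1A4 the element runs against the gene, so the capitals show its reverse complement. The match begins 68 bases before the start site in ASNS, 42 before it in CEBPG and 7 after it in SLC7A1. By edgeR, all 8 of these genes were lower in the knockdown than in the control at an adjusted p under 0.05, as were 15 of the 20 genes with windows and no match, 29 of the whole 35 and 25.1% of all genes tested. Between the rescues, 3 of the 8 were higher in the mutant rescue, 1 was lower and 4 were not called, with 21% and 20.3% of all genes higher and lower. A match is a run of letters, not a measured binding site. An element outside the windows or with other letters would be missed, so a gene with no match may still hold one. In each of these genes but SLC7A1, which has a single window, a window at another start site held no match. Reads were counted by gene, so the start site in use was not measured. PSPH, SHMT2, ALDH1L2, PYCR1, NUPR1, GPT2 and EIF4EBP1 were not matched to a window.

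Library totals ran from 15200343 to 17893241 counts. METTL3 stood at 68.4 and 68.5 CPM (counts scaled by library total and TMM factor) in the control and 26.2 and 31.3 in the knockdown. It reached 309 and 325 CPM in the wild-type rescue and 333 and 334 in the mutant rescue, 4.64-fold and 4.88-fold above the control, where counts of the hairpin's target and of the introduced copy fall on the same gene. All 12 markers of prostate luminal cells were present, with a summed level of 11194 to 11266 CPM in the control, 9238 to 9281 in the knockdown, 9393 to 9426 in the wild-type rescue and 8993 to 9038 in the mutant rescue. In bulk RNA, fewer cells of a kind and less RNA per cell cannot be told apart. The 4 basal markers summed to 2.77 to 4.34 CPM, mostly KRT14, with KRT5 at no count in 7 of 8 libraries, and the 4 leukocyte markers to at most 0.451. Of the 5 fibroblast markers, which summed to 78.3 to 105 CPM, COL1A1 made up nearly all (76.3 to 103), DCN was at most 0.258 and COL1A2 had no count. The ribosomal RNA genes RNR1 and RNR2 took 3.22% and 3.27% of the control counts, 2.44% and 2.48% of the knockdown and 2.71% to 2.79% of the rescues. The part of these differences in the results was not tested. Wild-type rescue replicate 1 stood apart in a few genes: BASP1 had 163 counts there and 25 to 41 in every other library, S100A6 77 against 6 to 17, and GSTP1 38 against 4 to 10. Of the 35 genes, SLC7A5 had its highest count there as well, 339 against 175 to 269.

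Per length, in RPKM averaged over the 4 lines, the most abundant messages of the set were DDIT4 (192), NUPR1 (159.8), EIF4EBP1 (125) and ATF4 (118). Lowest were ALDH1L2 (0.327), SLC1A4 (1.66) and SLC7A5 (3.202). The smallest count of any gene of the set in any library was 30, for ALDH1L2. Across the 140 pairs of libraries of a line, the higher CPM was a median of 1.03 times the lower, and 5 pairs exceeded 1.2, led by SLC7A5 in the wild-type rescue (1.90).

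**Figure D1:**
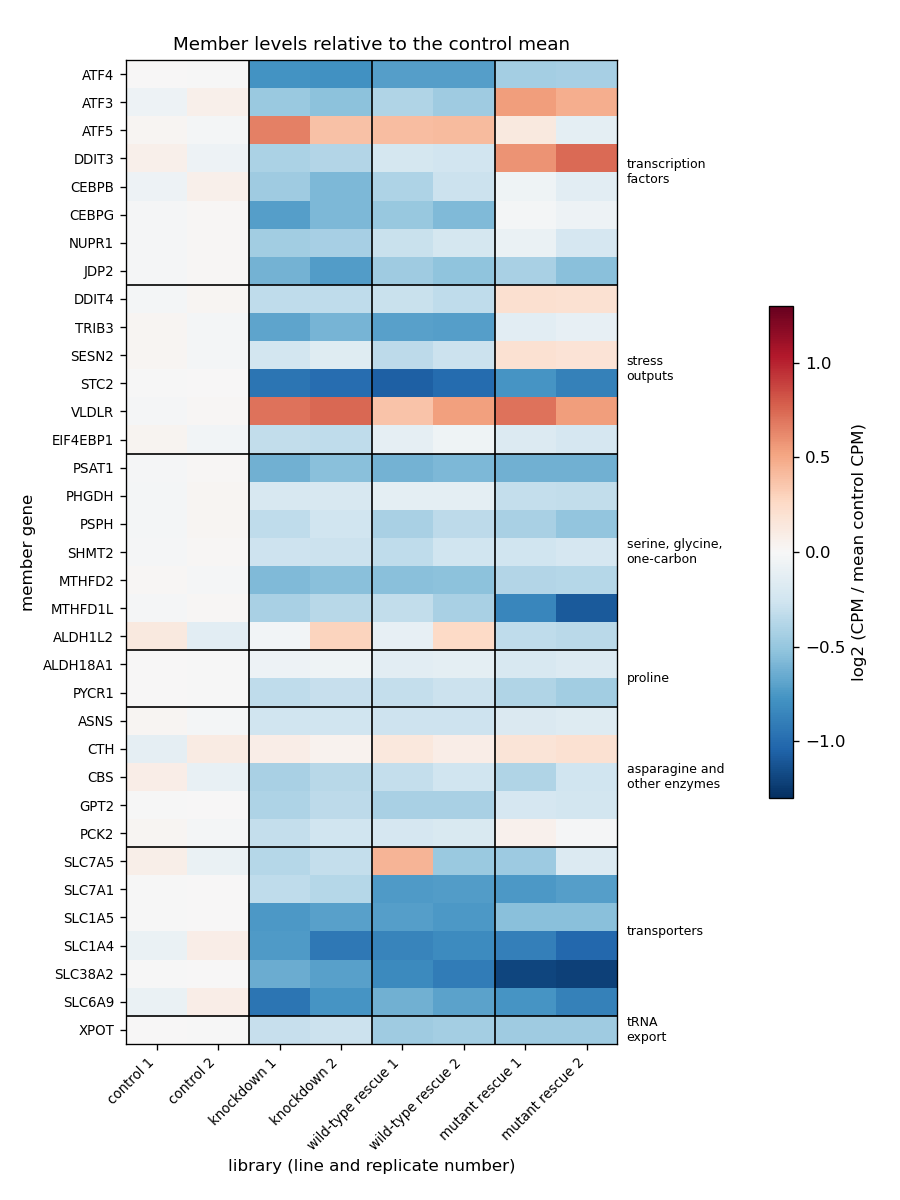
Colour gives log2 of the CPM in each of the 8 libraries (columns) over the mean control CPM for the 35 genes (rows, grouped by role), blue below and red above the control. Most rows are blue in the 6 hairpin libraries, ATF5 and VLDLR are red in the knockdown, and ATF3, DDIT3, DDIT4 and SESN2 are red in the mutant rescue.

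In the knockdown line most of the program was lower than in the control line, and "on knockdown" names this comparison of lines throughout. By edgeR, 29 of the 35 genes were lower and 2 higher at an adjusted p under 0.05, and 4 were not called. Over all genes tested, 25.1% were lower and 22.9% higher. The median log2 fold change was -0.37 over the set and -0.01 over all genes. Changes of at least 0.5 on the log2 scale were also counted: 13 genes of the set were lower by that much, where 5.33% of all genes were, and 2 were higher, where 6.04% were. In 31 of the 35 both knockdown libraries lay below both control libraries, as in 37.4% of all genes, and in 2 above them, as in 35.1%. Summed over the set, the level was 4611 and 4634 CPM in the control, 3502 and 3531 in the knockdown, 3475 and 3494 in the wild-type rescue and 3839 and 3800.5 in the mutant rescue. The wild-type rescue, with METTL3 RNA above the control, was likewise lower than the control in 29 genes of the set (median -0.34) and higher in 2. Over all genes 25.5% were lower and 23.8% higher in that comparison. Whether loss of METTL3 lowered these genes was not tested.

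Among the 8 transcription factors, 7 were lower on knockdown and 1 was higher, where 25.1% and 22.9% of all genes were, with a median of -0.51. ATF4 was at 329 and 326 CPM in the control, 191 and 189.5 in the knockdown, 199 and 199 in the wild-type rescue and 241 and 242 in the mutant rescue. The lines ordered as control, mutant rescue, wild-type rescue and knockdown, with no overlap between libraries of different lines. The knockdown was 1.72-fold below the control (log2 fold change -0.78, SE 0.03, edgeR adjusted p = 1.73e-63), whereas the wild-type rescue and the knockdown were not separated by the test (0.06, SE 0.03, edgeR adjusted p = 0.0854). The mutant rescue was above the wild-type rescue by 0.28 (SE 0.03) and below the control (-0.44, SE 0.03).

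ATF3, a stress-induced factor that ATF4 switches on, was at 87.2 and 95.5 CPM in the control, 65.2 and 63.2 in the knockdown, 69.5 and 66.4 in the wild-type rescue and 133 and 127 in the mutant rescue. DDIT3, the proapoptotic factor CHOP, was at 41.7 and 38.1 CPM in the control, 30.1 and 30.6 in the knockdown, 33.97 and 33.7 in the wild-type rescue and 60.01 and 66.6 in the mutant rescue. Both were low in the knockdown and the wild-type rescue and highest in the mutant rescue, above every control library. Against the wild-type rescue the mutant rescue was 1.91-fold higher for ATF3 (log2 fold change 0.94, SE 0.04, edgeR adjusted p = 6.96e-47). For DDIT3 it was 1.87-fold higher (0.91, SE 0.06, edgeR adjusted p = 1.09e-32). Against the control the mutant rescue was higher by 0.51 (SE 0.04) for ATF3 and 0.67 (SE 0.06) for DDIT3. The knockdown was lower than the control for both (-0.51, SE 0.05, and -0.40, SE 0.06). DDIT3 was lower in the wild-type rescue than in the control (-0.24, SE 0.06), but not without control replicate 1 (edgeR adjusted p = 0.0685).

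CEBPG, a C/EBP factor that forms dimers with ATF4, was at 96.1 and 98.8 CPM in the control, 59.3 and 65.2 in the knockdown, 69.2 and 65.3 in the wild-type rescue and 95.5 and 93.1 in the mutant rescue. CEBPB, a further C/EBP partner, was at 38.3 and 42.2 CPM in the control, 29.3 and 26.9 in the knockdown, 30.4 and 33.1 in the wild-type rescue and 38.6 and 36.6 in the mutant rescue. Each fell on knockdown (-0.65, SE 0.05, and -0.52, SE 0.07) and was higher in the mutant than in the wild-type rescue (0.49, SE 0.05, and 0.24, SE 0.07). The mutant rescue and the control were not separated by the test for CEBPG (-0.05, SE 0.04) or CEBPB (-0.10, SE 0.06). For CEBPB the difference between the rescues missed the threshold with DESeq2 (adjusted p = 0.0530) and without wild-type rescue replicate 1 (edgeR adjusted p = 0.0502).

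JDP2, a repressor of the AP-1 family, was at 22.6 and 23.1 CPM in the control, 14.95 and 13.8 in the knockdown, 16.6 and 15.9 in the wild-type rescue and 17.1 and 15.7 in the mutant rescue. It was low in every hairpin line, and the rescues differed by 0.02 (SE 0.09, not called). NUPR1, a small stress-responsive chromatin protein, fell by 0.44 on knockdown (SE 0.03) and was higher than the knockdown in the wild-type rescue (0.19, SE 0.03) and the mutant rescue (0.29, SE 0.03). The first of these calls ended with the gene length trend removed (edgeR adjusted p = 0.0998). The rescues differed in NUPR1 by 0.10 (SE 0.03), a call lost without wild-type rescue replicate 1 (edgeR adjusted p = 0.149), without mutant rescue replicate 1 (0.482) and with DESeq2 (adjusted p = 0.114).

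ATF5, which is related to ATF4 in sequence and in translational control, differed from it in direction. It was at 18.1 and 17.4 CPM in the control, 27.9 and 23.002 in the knockdown, 23.3 and 23.6 in the wild-type rescue and 19.4 and 16.2 in the mutant rescue. It rose on knockdown (0.53, SE 0.08, edgeR adjusted p = 3.52e-08) and was lower in the mutant than in the wild-type rescue (-0.40, SE 0.09, edgeR adjusted p = 5.02e-05). The mutant rescue overlapped the control (0.00, SE 0.09).

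**Figure D2:**
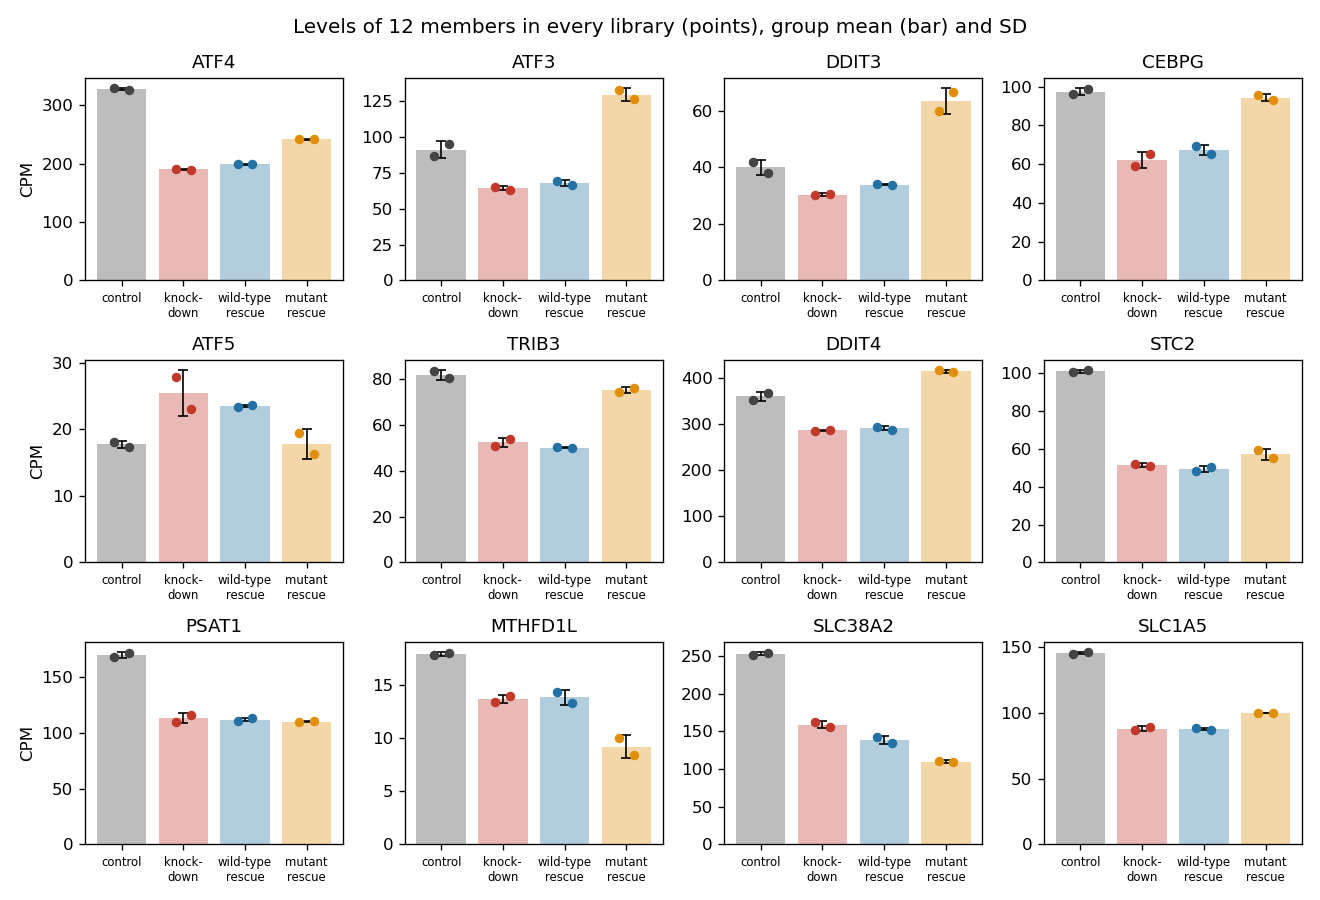
Points give the CPM of each library (y axis), bars the mean of the 2 libraries of a line (x axis) and error bars the SD, for 12 genes of the set. ATF3, DDIT3 and DDIT4 are highest in the mutant rescue, CEBPG and TRIB3 lie near the control there, STC2 and PSAT1 are low in every hairpin line, and SLC38A2 and MTHFD1L are lowest in the mutant rescue.

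Of the 6 stress outputs, 5 were lower on knockdown and 1 higher, where 25.1% and 22.9% of all genes were, with a median of -0.33. TRIB3, a pseudokinase that binds ATF4 and dampens it, was at 83.3 and 80.4 CPM in the control, 51.002 and 53.9 in the knockdown, 50.1 and 49.95 in the wild-type rescue and 74.2 and 76.1 in the mutant rescue. DDIT4, also called REDD1, an inhibitor of mTORC1, was at 352 and 366 CPM in the control, 285 and 287 in the knockdown, 293 and 287 in the wild-type rescue and 415 and 411 in the mutant rescue. The knockdown and wild-type rescue libraries of both genes were all below the mutant rescue. TRIB3 was higher in the mutant than in the wild-type rescue by 0.59 (SE 0.05, edgeR adjusted p = 1.30e-21) and DDIT4 by 0.51 (SE 0.02, edgeR adjusted p = 8.89e-46). Both fell on knockdown (-0.64, SE 0.05, and -0.33, SE 0.02). Against the control, DDIT4 was higher in the mutant rescue (0.20, SE 0.02). TRIB3 was lower there (-0.12, SE 0.05, edgeR adjusted p = 0.0166), but not without control replicate 1 (edgeR adjusted p = 0.138), without mutant rescue replicate 1 (0.107) or with DESeq2 (0.144). SESN2, a leucine-responsive inhibitor of mTORC1, was higher in the mutant than in the wild-type rescue (0.50, SE 0.05) and than in the control (0.19, SE 0.05). It was lower on knockdown (-0.20, SE 0.05), but not by DESeq2 (adjusted p = 0.0579) or without knockdown replicate 1 (edgeR adjusted p = 0.0550).

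STC2, a secreted glycoprotein induced by ATF4, had the largest fall of the 35 genes on knockdown. It was at 101 and 102 CPM in the control, 52.1 and 50.8 in the knockdown, 48.3 and 50.5 in the wild-type rescue and 59.2 and 55.1 in the mutant rescue. The knockdown was 1.962-fold below the control (-0.97, SE 0.05, edgeR adjusted p = 2.12e-44). In the mutant rescue STC2 was above the wild-type rescue by 0.21 (SE 0.05) and below the control (-0.82, SE 0.05). Its rise from the knockdown to the mutant rescue (0.15, SE 0.05) was lost with DESeq2 (adjusted p = 0.110), without knockdown replicate 2 (edgeR adjusted p = 0.0744) and without mutant rescue replicate 1 (0.212). EIF4EBP1, the translation repressor 4E-BP1, fell by 0.33 on knockdown (SE 0.04), while the wild-type rescue and the control were not separated by the test (-0.08, SE 0.04). It was higher than the knockdown in the wild-type rescue (0.25, SE 0.04) and the mutant rescue (0.13, SE 0.04). The mutant rescue call ended with DESeq2 (adjusted p = 0.0697), with the length trend removed (edgeR adjusted p = 0.650) and without mutant rescue replicate 1 (0.0512). The lower level in the mutant than in the wild-type rescue (-0.11, SE 0.04) was not called without wild-type rescue replicate 2 (edgeR adjusted p = 0.214), without mutant rescue replicate 2 (0.119) or with DESeq2 (0.116).

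VLDLR, a lipoprotein receptor that ATF4 can induce, was the other gene to rise on knockdown. It was at 18.6 and 18.96 CPM in the control, 30.6 and 31.5 in the knockdown, 24.3 and 27.3 in the wild-type rescue and 30.7 and 27.4 in the mutant rescue. All hairpin libraries exceeded both control libraries, with 0.72 on knockdown (SE 0.08, edgeR adjusted p = 2.46e-15). VLDLR was lower in the wild-type rescue than in the knockdown (-0.26, SE 0.07), but not without wild-type rescue replicate 1 (edgeR adjusted p = 0.119) or with DESeq2 (adjusted p = 0.0758). The rescues were not separated with all libraries (0.17, SE 0.07), but the mutant rescue was called higher without wild-type rescue replicate 2 (edgeR adjusted p = 0.0215) or mutant rescue replicate 2 (0.0250).

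Enzymes of serine, glycine and folate metabolism were lower in 6 of 7 on knockdown, where 25.1% of all genes were. Each rescue also had 6 of 7 below the control, with 25.5% (wild-type) and 29.7% (mutant) of all genes. PSAT1, the transaminase of serine synthesis, was at 168 and 171 CPM in the control, 109.8 and 116 in the knockdown, 111 and 113 in the wild-type rescue and 109.7 and 110.04 in the mutant rescue. The 3 hairpin lines lay close together, and the knockdown was 1.502-fold below the control (-0.59, SE 0.03). The rescues differed in PSAT1 by -0.03 (SE 0.04, edgeR adjusted p = 0.625). MTHFD2, a mitochondrial folate dehydrogenase, was at 123 and 121 CPM in the control, 81.97 and 83.4 in the knockdown, 83.6 and 83.9 in the wild-type rescue and 93.8 and 94.5 in the mutant rescue. It fell on knockdown (-0.56, SE 0.04) and was higher in the mutant than in the wild-type rescue (0.17, SE 0.04), though below the control in both.

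MTHFD1L, the mitochondrial formate-producing synthetase, went the other way between the rescues. It was at 17.8 and 18.1 CPM in the control, 13.4 and 13.98 in the knockdown, 14.4 and 13.4 in the wild-type rescue and 9.99 and 8.44 in the mutant rescue. The mutant rescue libraries lay below all others. The mutant rescue was 1.504-fold below the wild-type rescue (-0.59, SE 0.11, edgeR adjusted p = 3.75e-06) and 1.95-fold below the control (-0.96, SE 0.11). PHGDH, which commits glycolytic carbon to serine, fell by 0.21 on knockdown (SE 0.03) and was also lower in the mutant than in the wild-type rescue (-0.19, SE 0.03). SHMT2, which makes glycine in mitochondria, fell by 0.27 on knockdown (SE 0.02), and PSPH, the last enzyme of serine synthesis, fell by 0.29 (SE 0.06). Between the rescues neither was called (0.05, SE 0.02, and -0.09, SE 0.07), except SHMT2 without wild-type rescue replicate 2 (edgeR adjusted p = 0.0124). ALDH1L2, a mitochondrial folate enzyme with few counts, was not called in any of the 6 comparisons (1.95 to 3.05 CPM over the 8 libraries).

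Of the proline enzymes, PYCR1, the last step, fell by 0.31 on knockdown (SE 0.03) and was lower in the mutant than in the wild-type rescue (-0.13, SE 0.03). ALDH18A1, the first step, was not called on knockdown (-0.06, SE 0.03) and was lower than the control in both rescues (-0.13, SE 0.03, and -0.19, SE 0.03). ASNS, asparagine synthetase, ran from 80.8 to 99.3 CPM and fell by 0.26 on knockdown (SE 0.04), and the rescues were not separated by the test (0.09, SE 0.04). GPT2, mitochondrial alanine transaminase, and PCK2, which makes phosphoenolpyruvate in mitochondria, were lower on knockdown (-0.37, SE 0.03, and -0.29, SE 0.03). Both were higher in the mutant than in the wild-type rescue (0.20, SE 0.03, and 0.23, SE 0.03). PCK2 in the mutant rescue was not separated from the control (0.02, SE 0.03), whereas GPT2 stayed below it (-0.23, SE 0.03). CBS, which makes cystathionine, fell by 0.39 on knockdown (SE 0.06) and was lower than the control in both rescues. Its near-identical copy CBSL has a row of its own without a count in any library, so the CBS values are uncertain as to which copy the reads came from. CTH, which splits cystathionine to give cysteine, was not called in any comparison (14.7 to 18.3 CPM).

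Amino acid transporters had a median of -0.70 on knockdown, the lowest of the role groups, with 5 of 6 lower, where 25.1% of all genes were. Each rescue had 5 of 6 below the control, where 25.5% (wild-type) and 29.7% (mutant) of all genes were. SLC38A2, a sodium-coupled carrier of neutral amino acids that amino acid shortage induces, was at 251 and 255 CPM in the control, 162 and 155 in the knockdown, 142 and 134 in the wild-type rescue and 111 and 109 in the mutant rescue. The lines formed 4 steps without overlap. The mutant rescue was 2.301-fold below the control (-1.20, SE 0.03, edgeR adjusted p = 2.67e-77), the largest change of the 35 genes in the 6 comparisons. Each rescue was also below the knockdown (-0.20, SE 0.03, and -0.53, SE 0.03).

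SLC1A5, the glutamine carrier ASCT2, was at 145 and 146 CPM in the control, 86.8 and 89.5 in the knockdown, 88.5 and 87.2 in the wild-type rescue and 100.04 and 100.3 in the mutant rescue. It fell on knockdown (-0.73, SE 0.04), was higher in the mutant than in the wild-type rescue (0.19, SE 0.04) and stayed below the control in each hairpin line. SLC1A4, a carrier of serine, alanine and cysteine, was at 11.3 and 12.7 CPM in the control, 7.22 and 6.29 in the knockdown, 6.64 and 6.796 in the wild-type rescue and 6.48 and 5.92 in the mutant rescue. SLC6A9, the glycine carrier, was at 17.6 and 19.8 CPM in the control, 9.704 and 10.99 in the knockdown, 12.1 and 11.5 in the wild-type rescue and 10.98 and 10.2 in the mutant rescue. Both were low in all hairpin lines, with -0.82 (SE 0.12) for SLC1A4 and -0.86 (SE 0.10) for SLC6A9 on knockdown. Neither was separated between the rescues by the test (-0.12, SE 0.15, and -0.16, SE 0.11).

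SLC7A1, the carrier of arginine and lysine, was at 238 and 241 CPM in the control, 190.2 and 186 in the knockdown, 144 and 145 in the wild-type rescue and 143 and 146 in the mutant rescue. It fell on knockdown (-0.35, SE 0.03) and was lower again in the rescues than in the knockdown (-0.38, SE 0.03, and -0.38, SE 0.03). XPOT, which exports tRNA from the nucleus, was lower on knockdown (-0.29, SE 0.02) and likewise lower in each rescue than in the knockdown (-0.16, SE 0.03, and -0.17, SE 0.03). The rescues were not separated for SLC7A1 (-0.00, SE 0.03) or XPOT (-0.01, SE 0.03).

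SLC7A5, the leucine carrier LAT1, was at 16.99 and 15.2 CPM in the control, 12.4 and 12.96 in the knockdown, 21.8 and 11.5 in the wild-type rescue and 11.6 and 14.2 in the mutant rescue. The 2 wild-type rescue libraries were the highest and the lowest of the 8. With all libraries it was not called in any comparison (-0.34, SE 0.36 on knockdown). Without wild-type rescue replicate 1, in which BASP1, S100A6 and GSTP1 also stood high, it was lower than the control in the knockdown (edgeR adjusted p = 0.00195), the mutant rescue (0.00450) and the wild-type rescue (-0.48, edgeR adjusted p = 4.05e-04). Without wild-type rescue replicate 2 instead, the knockdown and the mutant rescue were again lower than the control (edgeR adjusted p = 0.00191 and 0.00439), but the wild-type rescue was higher (0.44, edgeR adjusted p = 2.81e-04).

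**Figure D3:**
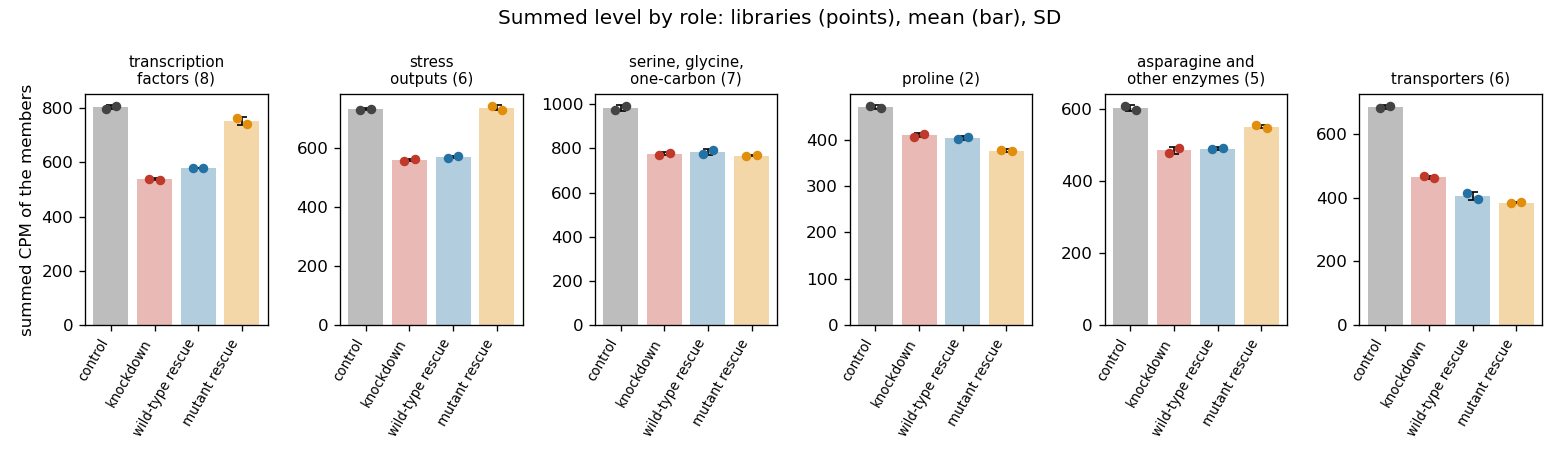
Points give the CPM summed over the genes of a role in each library (y axis), bars the mean of the 2 libraries of a line (x axis) and error bars the SD, with the number of genes in each title. The sums of transcription factors and of stress outputs are higher in the control and the mutant rescue than in the other lines. The transporter sum is highest in the control and lowest in the mutant rescue. By gene, SLC38A2, SLC7A1 and SLC1A4 have their lowest mean there, SLC6A9 and SLC7A5 in the knockdown and SLC1A5 in the wild-type rescue.

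The wild-type rescue line was also set against the knockdown line. In the set 5 genes were higher and 4 lower, and 26 were not called, while 10.8% of all genes were higher and 13.2% lower. None changed by 0.5 in either direction, as 0.549% and 0.706% of all genes did; called or not, the log2 fold changes of the set ran from -0.38 to 0.37. The median was 0.02 over the set and 0.01 over all genes. The 5 higher genes were EIF4EBP1, NUPR1, CEBPB, PHGDH and PCK2. With the gene length trend removed 1 of them, EIF4EBP1, was still called. CEBPB, PHGDH and PCK2 were not called with DESeq2 (adjusted p = 0.264, 0.137 and 0.275). The 4 lower were SLC7A1, VLDLR, SLC38A2 and XPOT. Against the control, the wild-type rescue was lower in 29 genes of the set and higher in 2, with 25.5% and 23.8% of all genes. By 0.5 or more 11 were lower and 0 higher, with 5.38% and 5.85% of all genes, and the highest log2 fold change of the set was 0.46.

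The mutant rescue line was set against the knockdown line in the same way. Here 15 genes of the set were higher and 9 lower, where 25.9% of all genes were higher and 25.8% lower. By 0.5 or more, 5 were higher and 3 lower, where 5.11% and 7.06% of all genes were. The 5 were DDIT3 (1.06, SE 0.06), ATF3 (1.01, SE 0.04), CEBPG, DDIT4 and TRIB3. The 3 were MTHFD1L (-0.57, SE 0.11), SLC38A2 and ATF5, a count that came to 1 without knockdown replicate 1 and to 1 without mutant rescue replicate 2. By role, 6 of 8 transcription factors and 5 of 6 stress outputs were higher. Of the 7 serine, glycine and folate enzymes 1 was higher and 3 were lower, and of the 6 transporters 1 was higher and 2 were lower.

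Set against each other, the rescues differ by label in catalytic activity. In the mutant rescue 14 genes of the set were higher and 6 lower, with 21% and 20.3% of all genes. At least 0.5 higher were ATF3, DDIT3, TRIB3 and DDIT4, as were 2.14% of all genes, and MTHFD1L was as much lower, as were 3.93%. The count of such lower genes was 0 without mutant rescue replicate 2, 2 without mutant rescue replicate 1 and 2 without wild-type rescue replicate 2. Of the 8 transcription factors 6 were higher and 1, ATF5, was lower, and of the 6 stress outputs 4 were higher and 1, EIF4EBP1, was lower. Transporters split into 1 higher, 1 lower and 4 not called, and the serine, glycine and folate enzymes into 1, 2 and 4. The median log2 fold change was 0.26 for transcription factors, 0.35 for stress outputs, -0.09 for the serine, glycine and folate enzymes and -0.14 for transporters, with 0.00 over all genes.

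Against the control, the mutant rescue was lower in 23 genes of the set and higher in 5, with 29.7% and 29.1% of all genes. The 5 were DDIT3, VLDLR, ATF3, DDIT4 and SESN2. By 0.5 or more 8 were lower and 3 higher, with 10.6% and 9.15% of all genes, and 5 of those 8 lower genes were transporters. The control had the highest mean of the 4 lines in 25 of the 35 genes, as in 32.9% of all genes. The mutant rescue had the highest mean in 6 (ATF3, DDIT3, DDIT4, SESN2, PCK2 and CTH), as in 31.6% of all genes. It had the lowest in 11 (PSAT1, PHGDH, PSPH, MTHFD1L, ALDH1L2, ALDH18A1, PYCR1, SLC7A1, SLC1A4, SLC38A2 and XPOT), as in 31.5% of all genes. Summed over the 8 transcription factors, the level was 799 and 810.2 CPM in the control, 540.1 and 537 in the knockdown, 579 and 581 in the wild-type rescue and 763 and 742 in the mutant rescue. Summed over the 6 transporters it was 681 and 689.6 CPM in the control, 468 and 461 in the knockdown, 415 and 396 in the wild-type rescue and 383 and 385 in the mutant rescue. By these sums the factors stood nearer the control in the mutant rescue than in the other hairpin lines, and the transporters were lowest there. The sums mix directions. Of the 8 factors, 2 were higher in the mutant rescue than in the control (ATF3 0.51, DDIT3 0.67), 3 were lower (ATF4 -0.44, JDP2 -0.48, NUPR1 -0.15) and 3 were not called. Between the rescues 1 of the 6 transporters was higher in the mutant (SLC1A5), 1 was lower (SLC38A2) and 4 were not called, with 21% and 20.3% of all genes.

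**Figure D4:**
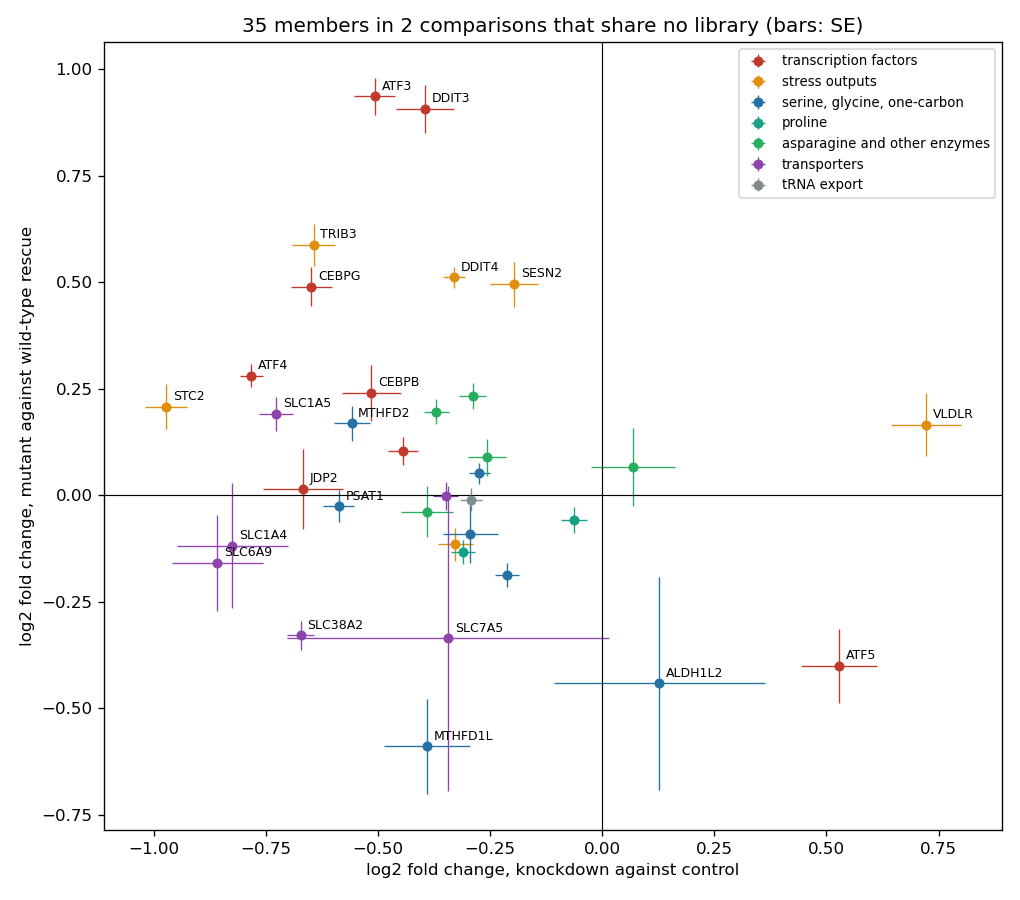
Each point is a gene of the set, with its log2 fold change on knockdown against the control (x axis) and between the rescues, mutant over wild-type (y axis), lines giving the SE and colour the role. ATF3, DDIT3, TRIB3, CEBPG, DDIT4 and SESN2 lie at the upper left, SLC38A2 and MTHFD1L at the lower left, and ATF5 at the lower right, and SLC7A5 and ALDH1L2 have the widest errors.

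The knockdown comparison and the comparison of the rescues share no library. Of the 29 genes of the set that fell on knockdown, 14 were higher in the mutant than in the wild-type rescue (48.3%), 5 were lower (17.2%) and 10 were not called. Of the 3831 genes of the whole table that fell on knockdown, 27.3% were higher and 23.2% lower between the rescues. The 14 were ATF4, ATF3, DDIT3, CEBPB, CEBPG, NUPR1, TRIB3, DDIT4, SESN2, STC2, MTHFD2, GPT2, PCK2 and SLC1A5. The 5 lower in both were EIF4EBP1, MTHFD1L, PHGDH, PYCR1 and SLC38A2, and no gene of the set was higher in both.

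Genes outside the set show where the inputs and neighbours of the pathway stood. A list of 16 genes covered the eIF2 kinases, eIF2, its exchange factor eIF2B and its phosphatase, with GCN1 and IMPACT besides. On knockdown 5 of the 16, IMPACT among them, were lower and 2 were higher, where 25.1% and 22.9% of all genes were. Between the rescues 3 were higher and 5 lower in the mutant, where 21% and 20.3% of all genes were, with medians of -0.06 and -0.02 in the 2 comparisons. EIF2S1, the subunit of eIF2 that is phosphorylated, was at 183 and 183 CPM in the control, 121 and 121 in the knockdown, 121 and 116 in the wild-type rescue and 115 and 116 in the mutant rescue. It was low in all hairpin lines (-0.60, SE 0.03 on knockdown). PPP1R15A (GADD34), the inducible phosphatase subunit, was at 10.6 and 11.3 CPM in the control, 11.2 and 10.99 in the knockdown, 11.3 and 11.8 in the wild-type rescue and 18.5 and 16.997 in the mutant rescue, and between the rescues it was higher in the mutant (0.61, SE 0.10), as was its constitutive counterpart PPP1R15B (0.43, SE 0.03). EIF2B3, a subunit of eIF2B (-0.45, SE 0.10), and EIF2AK2, the kinase PKR (-0.41, SE 0.08), were lower in the mutant. The level of a kinase's messenger RNA does not report its activity.

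Of 14 tested genes among 16 further ATF4 targets, 9 were lower and 2 higher on knockdown (median -0.25), with 25.1% and 22.9% of all genes. Between the rescues 9 were higher and 1 lower in the mutant (median 0.33), with 21% and 20.3% of all genes. CHAC1, which degrades glutathione, was at 14.2 and 16.6 CPM in the control, 5.47 and 4.58 in the knockdown, 6.64 and 7.07 in the wild-type rescue and 14.7 and 14.98 in the mutant rescue. It fell on knockdown (-1.60, SE 0.13) and was higher in the mutant than in the wild-type rescue (1.11, SE 0.12). TXNIP, an inhibitor of thioredoxin and glucose uptake, was at 89.4 and 83.8 CPM in the control, 255 and 253 in the knockdown, 197 and 189 in the wild-type rescue and 105 and 101 in the mutant rescue. It went in the opposite direction in both comparisons (1.55, SE 0.03, and -0.91, SE 0.03). SLC3A2, the partner chain of SLC7A5, fell by 0.65 on knockdown (SE 0.04). ADM2, a secreted peptide, was lower on knockdown (-0.62, SE 0.05) and higher in the mutant than in the wild-type rescue (0.50, SE 0.05), as was GDF15, a stress cytokine, between the rescues (0.64, SE 0.02).

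Of 18 endoplasmic reticulum chaperones and ATF6 or XBP1 response genes, 12 were lower and 4 higher on knockdown (median -0.12), with 25.1% and 22.9% of all genes. Between the rescues 9 were higher and 1 lower in the mutant (median 0.08), with 21% and 20.3% of all genes. HERPUD1, a factor of endoplasmic reticulum protein degradation, was at 102 and 109 CPM in the control, 74.8 and 77.1 in the knockdown, 79.1 and 75.98 in the wild-type rescue and 127 and 127 in the mutant rescue, highest in the mutant rescue (0.71, SE 0.04 against the wild-type rescue). XBP1 fell by 0.52 on knockdown (SE 0.03) and the chaperone DNAJC3 by 0.31 (SE 0.05), while the sensor ERN1 rose (0.46, SE 0.06). Between the rescues DNAJB9 (0.57, SE 0.07), ERN1 (0.34, SE 0.06) and SYVN1 (0.33, SE 0.04) were higher in the mutant.

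Among 28 further genes of amino acid metabolism and transport, 11 were lower and 5 higher on knockdown, with 25.1% and 22.9% of all genes, and the median was 0.01. GLUD1, glutamate dehydrogenase, fell by 0.57 (SE 0.04) and the carrier SLC7A8 by 0.53 (SE 0.03), whereas the carrier SLC7A2 rose (0.57, SE 0.04). Between the rescues 5 of these were higher and 7 lower in the mutant, near the 21% and 20.3% of all genes. Those lower included MTHFD1, a cytosolic folate enzyme (-0.45, SE 0.04), and the carrier SLC38A1 (-0.37, SE 0.04).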

How the data were processed

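Per the labels' protocols, TRIzol was used to extract RNA and a stranded kit for messenger RNA to prepare libraries. The authors deposited unnormalised read counts by gene with 1 other column, each gene's length. The submitters' processing notes list the tools CASAVA, STAR (2.5.2b), featureCounts and DESeq2, and build hg19; the strand setting and parameters of counting are not given in the sources used here, so reads of antisense partners (CEBPB-AS1, VLDLR-AS1) cannot be set apart. Promoter windows come from RefSeq, GRCh38.p14, and the files give no coordinates.

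The model was edgeR's quasi-likelihood test (edgeR 4.0.16, R 4.3.3), robust, with TMM scaling and a mean for each of the 4 groups over all 8 libraries. filterByExpr (minimum count 10, total 15) kept 15289 of 27140 genes, over which two-sided p-values were adjusted by Benjamini-Hochberg. A gene was called under 0.05. A standard error is the size of the log2 fold change over the root of F. An exact permutation test of 2 libraries against 2 cannot reach 0.05. Within a line the libraries' counts varied beyond sampling noise by a small amount (chi-square per degree of freedom 1.21 to 1.35). The common coefficient of variation that edgeR fitted beyond that noise was 1.40%. Without molecular identifiers reads are not independent molecules. Replicate numbers did not pair the libraries (correlations of deviations -0.04 to 0.03). The steps were also run on simulated independent counts with changes set in the knockdown group. Such counts hold no differences between separately made lines, so that run cannot speak to them.

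The genes, lists, rules and alternatives were chosen with earlier results of these data known. CPM in every library are given for ATF4 and for genes called with an absolute log2 fold change of 0.5 or more on knockdown or between the rescues; SLC7A1 and SLC7A5 were added after their values were seen. Genes outside the set are among the 4 largest called changes of their list. Alternatives were DESeq2 1.42.0 size factors or its Wald test, no count filter, only the groups compared, the replicate block, leaving out each library, and an offset removing the gene length trend (lowess span 0.3).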

Additional observations from a re-analysis of the deposited data

How the results depend on the processing

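For the 35 genes in 6 comparisons the alternatives gave 2938 values, of which 2867 kept direction and call, 51 lost the call and 19 gained it. The remaining 1 changed sign: SLC7A5, wild-type rescue against control, -0.48 without wild-type rescue replicate 1 and 0.44 without replicate 2. DESeq2's Wald test called 4739 genes on knockdown (edgeR 7337), 1677 between wild-type rescue and knockdown (3673), 3721 between the rescues (6307) and 4967 between wild-type rescue and control (7531). The 5 genes of the set higher in the wild-type rescue than in the knockdown came to 3 with DESeq2 size factors, without the count filter or with only the groups compared, to 2 with DESeq2's test, to 1 with the length trend removed and to 3 to 5 with a library left out. Leaving out a library, counts at 0.5 or more ranged from 1 to 2 (higher on knockdown), 0 to 1 (higher, wild-type rescue against knockdown), 1 to 3 (lower, mutant rescue against knockdown), 0 to 2 (lower, mutant against wild-type rescue) and 0 to 1 (higher, wild-type rescue against control). The causes were not tested.

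With the replicate number as a block, edgeR called 7369 genes on knockdown, 3717 between wild-type rescue and knockdown, 7930 between mutant rescue and knockdown, 6340 between the rescues, 7563 between wild-type rescue and control and 9004 between mutant rescue and control, and no call of the 35 genes changed. ALDH1L2 had as few as 30 counts in a library, with an SE of 0.24 on knockdown.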
